A study of Mus musculus with 6 samples.

Results

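Adgre1, Adgre4 and Adgre5, the genes of the Adgre family of adhesion G protein-coupled receptors in the mouse annotation, were described in bone marrow-derived dendritic cells (BMDCs) with and without Nfkb2. They are 3 of the 56748 Ensembl genes in the count files, and all 3 were among the 21849 genes tested. They were chosen by family name and by their values in these libraries, Adgre4 because it was lower in Nfkb2-/- BMDCs and Adgre1 because it moved with macrophage markers. Their difference between genotypes is therefore a description, without a test.

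RNA-seq was performed on unstimulated BMDCs from C57BL/6 WT mice and from mice with a global deletion of Nfkb2, the gene for the NF-κB precursor p100, with 3 libraries per genotype. Bone marrow cells had been kept for 5 days in GM-CSF at 20 ng/mL and for 4 more days in GM-CSF at 20 ng/mL with IL-4 at 10 ng/mL, so both genotypes shared the same 9 days of cytokines. Since Nfkb2 was absent from all cells of the knockout animals, not from dendritic cells alone, the marrow precursors lacked it too. The study describes the libraries of a genotype as independent biological replicates.

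Adhesion G protein-coupled receptors have a long extracellular part joined to a membrane-spanning part by a domain at which many of them cleave themselves. Adgre receptors carry EGF-like repeats in the extracellular part and are found mainly on myeloid cells. Adgre1 encodes F4/80, the standard surface marker of mouse macrophages. Adgre4 encodes FIRE, an F4/80-like receptor of mouse monocytes and some macrophages and dendritic cells. Adgre5 encodes CD97, a receptor of leukocytes that binds CD55, THY1 and integrins.

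Adgre1 (ENSMUSG00000004730) lies on the plus strand at chr17:57358691-57483527 and Adgre4 (ENSMUSG00000032915) on the plus strand at chr17:55749984-55853662, both in GENCODE M21 (GRCm38). Adgre5 (ENSMUSG00000002885) lies on the minus strand of another chromosome, at chr8:83723251-83741326. RefSeq promoter sequence was matched for 1 of the 3 genes, Adgre4, and is shown for that gene alone. The first line is the 250 bases before the transcript start (GRCm38.p6, plus strand, chr17:55749734-55749983), and the second is the 30 bases from position 21 of the transcript (chr17:55750004-55750033). Capitals mark a match to GAGGAA, the core of sites bound by PU.1, the myeloid ETS factor, read on the minus strand.
Adgre4 upstream: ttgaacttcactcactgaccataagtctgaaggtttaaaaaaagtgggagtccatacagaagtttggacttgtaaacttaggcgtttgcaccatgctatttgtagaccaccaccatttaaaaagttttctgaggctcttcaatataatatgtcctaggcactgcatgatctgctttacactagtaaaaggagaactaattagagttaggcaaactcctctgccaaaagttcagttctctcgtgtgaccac
Adgre4 transcript start: gaacaagataagcagtggtgcacTTCCTCc
The match lies at positions 44 to 49 of the transcript, counted from 1 at its first base, and overlaps no other motif searched. On both strands of the window of 250 bases before and 50 bases after the start, the NF-κB consensus had 0 matches, which says only that these letters are not in this window. Among 32851 RefSeq promoter windows of this length, 28.3% held GAGGAA and 4.51% held the NF-κB consensus.

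The libraries held 43126299, 31622131 and 33211096 counts in WT replicates 1 to 3 and 29863927, 31622146 and 55623068 in Nfkb2-/- replicates 1 to 3. A single count was worth 0.0187 to 0.0344 CPM (counts scaled to a fixed library size with edgeR's TMM factors). The deleted gene, Nfkb2, was at 215, 154 and 355 CPM in WT and at 44.8, 32.3 and 32.6 CPM in Nfkb2-/- libraries, lower in each library labelled Nfkb2-/- than in each WT library. Relb, whose product pairs with p52 and is held by p100, was at 201, 119 and 260 CPM in WT and at 140, 106 and 119 CPM in Nfkb2-/- BMDCs, with Nfkb2-/- replicate 1 above WT replicate 2.

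A pair of libraries stood apart. Nfkb2-/- replicate 1 had a count for 47952 genes, against 27692 to 33841 in the other 5 libraries, and lay at 160 on the first principal component, which held 45.2% of the variance, with the others between -56.3 and -9.72. On the second component WT replicate 3 lay at 96.4, with the others spread between -70.3 and 45.8. WT replicate 3 was low in macrophage markers: of 24 such markers tested, 23 were lower in it than in both other WT libraries, as were 39.6% of all genes tested. Of the dendritic cell markers listed, the MHC class II chaperone Cd74 was at 1870 to 3691 CPM and Itgax (CD11c) at 123 to 769 CPM. Xcr1, a receptor of cross-presenting dendritic cells, was at or below 0.620 CPM. Transcripts of Lyz2, a lysozyme of macrophages and other myeloid cells, were at 267 to 3436 CPM.

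Adgre4 was the member that differed most between genotypes. It was at 14.5, 16.9 and 12.4 CPM in WT replicates 1 to 3 and at 3.46, 2.87 and 3.35 CPM in Nfkb2-/- replicates 1 to 3. Every Nfkb2-/- library lay below every WT library, and within a genotype the highest library was only 1.37 times the lowest in WT and 1.21 times in Nfkb2-/- BMDCs. These values rest on 611, 549 and 359 counts in WT and on 117, 87 and 179 counts in Nfkb2-/- libraries. The mean was 14.6 ± 2.27 CPM in WT and 3.22 ± 0.314 CPM in Nfkb2-/- BMDCs (SD, n = 3 each), 4.51-fold lower in the latter, and the fitted log2 fold change was -2.17 with a standard error of 0.20. In bulk libraries such as these, fewer cells of a type and less RNA per cell cannot be told apart.

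Adgre4 was among the 149 genes called lower in Nfkb2-/- BMDCs, 0.682% of those tested. A call required a difference of more than 1.2-fold and an adjusted p-value (Benjamini-Hochberg) below 0.05 in edgeR's quasi-likelihood test. In all, 248 genes (1.14%) were called in either direction, 99 of them higher (0.453%), and 24.7% of the genes tested had no overlap between genotypes. Because Adgre4 was chosen on this contrast, nothing is read from its call. Its log2 fold change lay between -2.28 and -2.06 in the 14 alternative fits, at -2.28 without WT replicate 3, and it was called in 9 of them.

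Adgre1 varied within WT rather than between genotypes. It was at 138, 159 and 20.3 CPM in WT replicates 1 to 3 and at 107, 117 and 147 CPM in Nfkb2-/- replicates 1 to 3. WT replicate 3 was far below the other 5 libraries, which overlapped, and the highest WT library was 7.81 times the lowest, against 1.38 times in Nfkb2-/- BMDCs. The mean was 106 ± 74.8 CPM in WT and 123 ± 20.8 CPM in Nfkb2-/- BMDCs (SD, n = 3 each), with a log2 fold change of 0.22 and a standard error of 0.63. Without WT replicate 3 the WT mean was 149 CPM and the log2 fold change -0.26, the opposite direction. Over the 14 alternative fits it ranged from -0.26 to 0.68, the latter with limma voom, and was 0.63 without WT replicate 2. Adgre1 was called in 0 of them.

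Adgre5 was lower on average in Nfkb2-/- BMDCs, with overlap. It was at 20.7, 43.0 and 30.3 CPM in WT and at 21.4, 21.6 and 17.8 CPM in Nfkb2-/- libraries. WT replicate 1 lay inside the Nfkb2-/- range, while WT replicates 2 and 3 lay above it. The mean was 31.3 ± 11.2 CPM in WT and 20.2 ± 2.16 CPM in Nfkb2-/- BMDCs (SD, n = 3 each), with a log2 fold change of -0.63 and a standard error of 0.27. The log2 fold change stayed negative in the 14 alternative fits, was nearest to 0 without WT replicate 2, at -0.33, and was called in 0 of them.

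**Figure D1:**
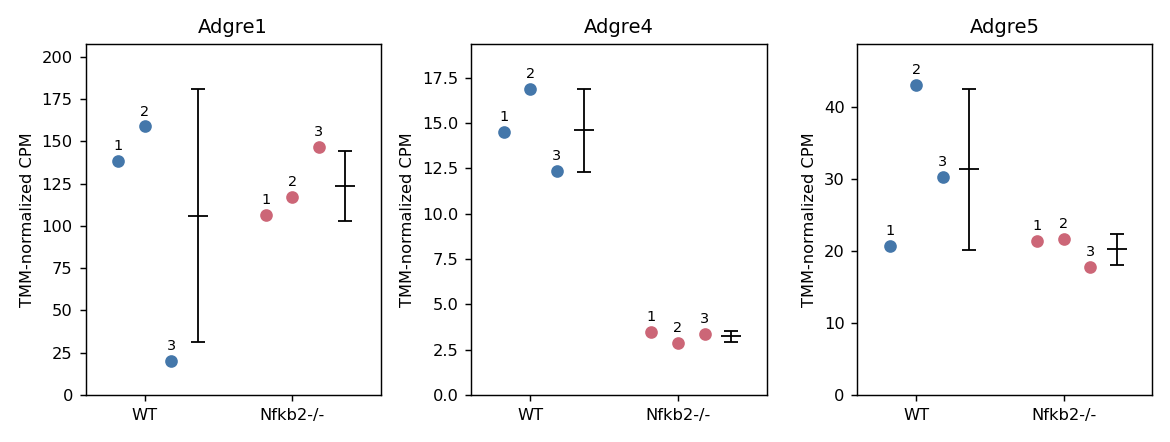
TMM-normalized CPM of Adgre1, Adgre4 and Adgre5 in each library, with numbers giving the replicate and bars the mean ± SD of 3 libraries. The Adgre4 libraries of the genotypes do not overlap, WT replicate 3 lies low for Adgre1 at 20.3 CPM, and WT replicate 1 lies inside the Nfkb2-/- range for Adgre5.

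Per length, Adgre1 was the most abundant of the 3 transcripts in 5 of 6 libraries. Its level was 150, 182 and 18.6 TPM (counts scaled by union exonic length and then to a fixed total) in WT and 121, 117 and 147 TPM in Nfkb2-/- libraries. Adgre5 was at 19.3, 42.6 and 23.9 TPM in WT and at 20.9, 18.7 and 15.4 TPM in Nfkb2-/- libraries. Adgre4 was at 14.5, 18.0 and 10.5 TPM in WT and at 3.63, 2.66 and 3.12 TPM in Nfkb2-/- libraries, the lowest of the 3 in every library. In WT replicate 3 the order of the upper pair turned, with Adgre5 above Adgre1, while the Adgre5 and Adgre4 ranges did not overlap in either genotype.

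The makeup of the family was compared too. Adgre4 made up 7.92%, 7.41% and 19.8% of the summed TPM of the family in WT and 2.50%, 1.92% and 1.88% in Nfkb2-/- libraries. The high WT value was that of replicate 3, in which Adgre1 was 35.1% of the sum, against 75.1% to 88.8% in the other libraries. Set against Adgre5, whose CPM in WT replicate 3 lay between those of the other WT libraries, Adgre4 was 0.701, 0.392 and 0.408 times as high in CPM in WT and 0.162, 0.133 and 0.189 times as high in Nfkb2-/- libraries, again with no overlap. Both ratios use the Adgre4 values by which the gene was chosen.

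Other genes overlap 2 of the members. Adgre5 and Ddx39, a helicase gene on the opposite strand, share 895 of the 3757 exonic bases of Adgre5, and the use of strand in counting is not given in the sources used here, so reads there cannot be told apart. Ddx39 was at 10.6, 17.4 and 10.4 CPM in WT and at 18.2, 19.8 and 18.2 CPM in Nfkb2-/- libraries, higher in the latter without overlap but not called (log2 fold change 0.55, adjusted p = 0.291 from edgeR). Adgre4 holds the pseudogenes Gm18417 and CT573084.1 on the opposite strand, and neither shares an exonic base with it. Gm18417 was at 3.16, 2.03 and 2.93 CPM in WT and at 0.768, 1.42 and 0.524 CPM in Nfkb2-/- libraries, lower without overlap but not called (log2 fold change -1.59, adjusted p = 0.131 from edgeR), and CT573084.1 had at most 6 counts in a library.

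Macrophage markers, by which Adgre1 was chosen, are given as a description. Summed over the 24 markers tested of 26 listed, they were at 5650, 5810 and 667 CPM in WT replicates 1 to 3 and at 2879, 3859 and 3657 CPM in Nfkb2-/- replicates 1 to 3. The sums were lower in each Nfkb2-/- library than in WT replicates 1 and 2, whereas Adgre1 in Nfkb2-/- replicate 3 lay above WT replicate 1. Of the 24, 21 had their lowest value in WT replicate 3, as did 25.0% of all genes tested. Lyz2, the most abundant, was at 3436, 3407 and 267 CPM in WT and at 1234, 2061 and 1867 CPM in Nfkb2-/- libraries. Csf1r, the receptor for the macrophage growth factor CSF1, was at 239, 250 and 37.2 CPM in WT and at 115, 131 and 157 CPM in Nfkb2-/- libraries. Mertk, a receptor for the uptake of dead cells, was at 66.1, 90.2 and 17.8 CPM in WT and at 73.0, 71.1 and 67.6 CPM in Nfkb2-/- libraries. Both genes had the low WT replicate 3 that Adgre1 had, and both were named after their values were seen.

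In the genotype comparison 0 of the 24 macrophage markers were called in edgeR, 5 had an unadjusted p-value under 0.05 (as did 17.1% of all genes tested) and 3 (Apoe, Maf and Spic) were called by DESeq2, which called 8.6% of all genes. Their median log2 fold change was -0.31, with 6 higher and 18 lower, beside 0.08 over all genes tested. Gpnmb, a lysosomal glycoprotein, was at 866, 796 and 130 CPM in WT and at 596, 559 and 454 CPM in Nfkb2-/- libraries. Axl, a receptor related to Mertk, was at 208, 326 and 74.3 CPM in WT and at 379, 526 and 497 CPM in Nfkb2-/- libraries. Spic, a transcription factor of red pulp macrophages, was the marker not lowered in WT replicate 3, at 12.7 CPM there. Without WT replicate 3, 2 markers were called, Apoe (log2 fold change -5.76, adjusted p = 0.017 from edgeR) and Maf (-3.11, adjusted p = 0.012 from edgeR), and the median was -0.72. In that fit 270 of all 21341 genes tested were called. Vsig4 and Timd4, markers of resident tissue macrophages, had at most 16 counts in a library. Adgre4 too was lowest among the WT libraries in replicate 3, at 12.4 CPM there against 14.5 and 16.9 CPM, and still above each Nfkb2-/- library. The part of macrophage content in the Adgre4 values was not tested.

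**Figure D2:**
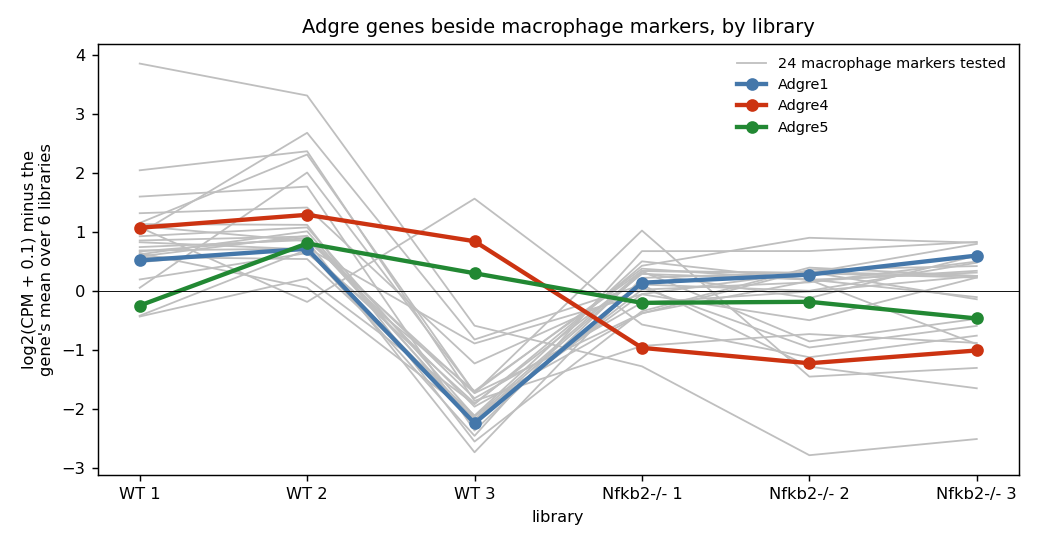
Level of each gene by library, as log2(CPM + 0.1) minus the gene's mean over the 6 libraries, for the 3 Adgre genes (coloured) and the 24 macrophage markers tested (grey). Adgre1, Adgre4 and 23 of the 24 markers are lower in WT replicate 3 than in the other WT libraries, and Adgre4 is lower still in the 3 Nfkb2-/- libraries.

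Markers of monocytes were described beside Adgre4. For monocytes with little Ly6C, on which FIRE is found, 12 markers were tested and 0 were called in edgeR. An unadjusted p-value under 0.05 was found for 3, and DESeq2 called Treml4, Spn and Cd300e, beside 17.1% and 8.6% of all genes tested. Their sum was 253, 309 and 208 CPM in WT and 362, 339 and 372 CPM in Nfkb2-/- libraries, and their median log2 fold change was 0.35. Itgal, an integrin subunit and the most abundant, was at 58.1, 113 and 16.3 CPM in WT and at 129, 135 and 149 CPM in Nfkb2-/- libraries. Of the markers, 10 had their lowest value in WT replicate 3, as did 25.0% of all genes tested. For monocytes rich in Ly6C, 0 of 10 markers were called in edgeR. An unadjusted p-value under 0.05 was found for 4, and DESeq2 called Chil3, Fn1 and Ms4a4c, beside the same 17.1% and 8.6%. Their median was 0.68, and their sum was 2064, 2475 and 791 CPM in WT and 2898, 4173 and 3421 CPM in Nfkb2-/- libraries. Chil3, a chitinase-like protein, made up much of that sum, at 1151, 1084 and 539 CPM in WT and at 2188, 3072 and 2265 CPM in Nfkb2-/- libraries. Without it the other 9 markers summed to 912, 1391 and 252 CPM in WT and to 709, 1102 and 1156 CPM in Nfkb2-/- libraries, with overlap. Ccr2, the receptor by which monocytes leave the marrow, overlapped between genotypes, and Fn1, for fibronectin, had a log2 fold change of -1.70 (adjusted p = 0.245 from edgeR). Without WT replicate 3 the medians of the lists were 0.09 for the former list, with Eno3 called in edgeR, and 0.19 for the latter, with Fn1 and Ms4a4c called. In that fit 270 of all 21341 genes tested were called.

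Among 20 dendritic cell markers 1 was called, Itgax, which rose in Nfkb2-/- BMDCs. It was at 160, 277 and 123 CPM in WT and at 745, 769 and 716 CPM in Nfkb2-/- libraries (log2 fold change 1.99, SE 0.30, adjusted p = 0.041 from edgeR). Of the 20, 14 were higher and 6 lower, 9 had an unadjusted p-value under 0.05 and 7 were called by DESeq2, beside 17.1% and 8.6% of all genes tested. Without overlap, 7 of the 20 were higher and 2 lower, beside 24.7% of all genes tested without overlap. Irf8, a transcription factor of dendritic cells, was among the lower but not called in edgeR (log2 fold change -1.94, adjusted p = 0.066). Among the higher, Kmo and Mgl2 had log2 fold changes of 2.58 and 2.09 and were not called in edgeR. Irf8, Kmo and Mgl2 were named after their values were seen. The median of the 20 was 0.35, and 0.19 without Nfkb2-/- replicate 1. Cst3, for the protease inhibitor cystatin C, and H2-Aa, an MHC class II chain, were the most abundant after Cd74, and both overlapped between genotypes. Among 16 genes of mature dendritic cells, 1 rose and 2 fell, beside 1.14% called over all genes tested, with a median of -0.40. An unadjusted p-value under 0.05 was found for 9 of them, and DESeq2 called 5, Fscn1 and Cd83 besides the 3 called in edgeR. Over all genes tested the shares were 17.1% and 8.6%. Ccl17, a T cell chemokine, was at 161, 361 and 432 CPM in WT and at 2385, 2472 and 2357 CPM in Nfkb2-/- libraries (log2 fold change 2.92, SE 0.37, adjusted p = 0.031 from edgeR). Il12b, for the p40 subunit of IL-12, fell by 3.09 on the log2 scale (SE 0.53, adjusted p = 0.049 from edgeR), and Il15ra, which presents IL-15, fell by 1.29 (SE 0.20, adjusted p = 0.042 from edgeR). Of the 16 genes, 12 had their highest value in WT replicate 3, as did 21.8% of all genes tested. Ccl22, a chemokine and the most abundant of them, was at 7787, 5890 and 10728 CPM in WT and at 6072, 5826 and 5357 CPM in Nfkb2-/- libraries, with overlap. Without WT replicate 3 the median of the 16 was -0.23, Ccl17 and Il15ra were called in edgeR and Il12b was not (adjusted p = 0.062). That fit called 270 of all 21341 genes tested.

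Markers of other cell types were examined as well. Of 10 eosinophil markers 0 were called in edgeR. An unadjusted p-value under 0.05 was found for 5, and DESeq2 called Siglecf, Ear6 and Alox15, beside 17.1% and 8.6% of all genes tested. All 10 had a log2 fold change above 0, with a median of 1.35, but 6 had their lowest value in WT replicate 3, as did 25.0% of all genes tested. Without that library the median was 1.19 and Ear2 and Prg3 were at -0.46 and -0.23. The sum over them was 161, 293 and 36.2 CPM in WT and 253, 292 and 255 CPM in Nfkb2-/- libraries. Ear2, a ribonuclease and the most abundant, was at 137, 211 and 23.2 CPM in WT and at 110, 141 and 127 CPM in Nfkb2-/- libraries, with overlap. Of 7 mast cell and basophil markers, 3 were higher and 4 lower, and Cpa3, a mast cell protease, was called in edgeR, beside 1.14% of all genes tested. An unadjusted p-value under 0.05 was found for 2, and DESeq2 called Cpa3 and Gata2, beside the same 17.1% and 8.6%. Cpa3 was at 10.8, 6.31 and 6.85 CPM in WT and at 1.86, 2.34 and 2.49 CPM in Nfkb2-/- libraries (log2 fold change -1.84, SE 0.28, adjusted p = 0.041 from edgeR). Gata2, a transcription factor of mast cells and basophils, had a log2 fold change of 1.47 without overlap (adjusted p = 0.119 from edgeR), the opposite direction. Of 11 neutrophil markers, 6 lymphocyte markers and 6 stromal and erythroid markers, 0 were called in edgeR (4, 1 and 0 with an unadjusted p-value under 0.05, beside the same 17.1%). DESeq2 called Ngp, Ltf and Cxcr2 of the first list and Il7r of the second, beside 8.6% of all genes tested. The medians were -0.24, 1.65 and 0.06. Without WT replicate 3, edgeR called the same 3 neutrophil markers, Ngp and Ltf lower (log2 fold changes -2.23 and -2.04, adjusted p = 0.026 and 0.035) and Cxcr2 higher (3.36, adjusted p = 0.041). In that fit 270 of all 21341 genes tested were called. Without Nfkb2-/- replicate 1 the medians were -1.08, -0.70 and -0.98. The most abundant of each list were S100a8, Il7r and Col1a2, and of the mast cell and basophil list the receptor gene Kit, none of them called in edgeR. The part of any of these cell types in the Adgre values was not tested.

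The other adhesion G protein-coupled receptors were mostly at low levels. Of 27 outside the Adgre family, 24 were tested and 0 called in edgeR, with 3 at an unadjusted p-value under 0.05 and 3 called by DESeq2 (Adgrg6, Adgrg5 and Adgrf5), beside 17.1% and 8.6% of all genes tested. Their median log2 fold change was 0.97, with 20 higher and 4 lower, but 19 of the 24 had their highest value in Nfkb2-/- replicate 1, as did 31.2% of all genes tested, and without that library the median was -0.14. Adgrg6, a receptor for collagen IV and laminin, was the most abundant, at 915, 543 and 1390 CPM in WT and at 405, 504 and 505 CPM in Nfkb2-/- libraries. It was lower without overlap but not called in edgeR (log2 fold change -1.01, SE 0.33, adjusted p = 0.185), and it was called by DESeq2 (adjusted p = 0.035). On the TPM scale its mean level was 254 in WT and 130 in Nfkb2-/- BMDCs, so it and Adgre1 were the adhesion receptors with the highest mean levels over the 6 libraries, followed by Adgre5 and Adgre4.

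Next in level over the 6 libraries were Adgrg5, a leukocyte receptor, and Adgrl2, a latrophilin. In Nfkb2-/- BMDCs alone Adgrg5 was above Adgre4, at a mean of 8.54 against 3.14 TPM. In WT it was below Adgre4, at a mean of 2.01 against 14.3 TPM. Adgrg5 was at 0.878, 4.03 and 0.310 CPM in WT and at 9.19, 6.99 and 7.37 CPM in Nfkb2-/- libraries, higher without overlap but not called in edgeR (log2 fold change 2.17, SE 0.77, adjusted p = 0.211). Its direction was opposite to that of Adgre4. Adgrl2 was at 13.8, 12.0 and 4.54 CPM in WT and at 6.79, 9.03 and 7.35 CPM in Nfkb2-/- libraries, with overlap.

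**Figure D3:**
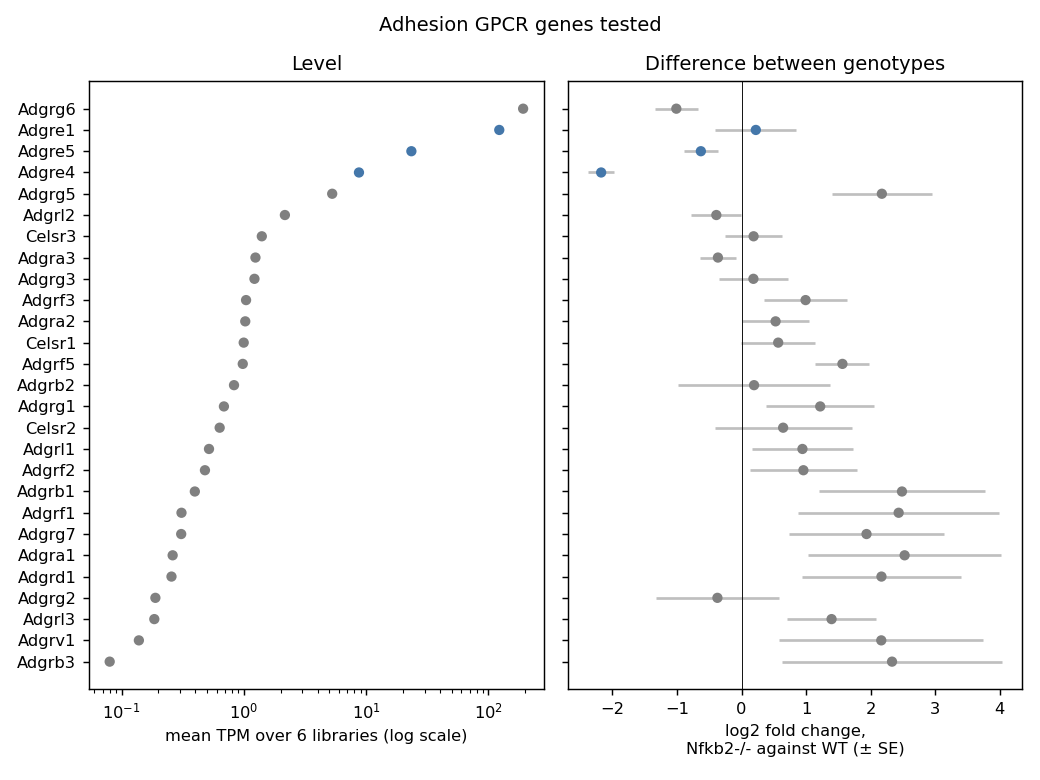
Mean TPM over the 6 libraries (left, log scale) and log2 fold change in Nfkb2-/- against WT BMDCs with its standard error (right) for the 27 adhesion receptor genes tested, the 3 Adgre genes in blue. Adgrg6, Adgre1, Adgre5 and Adgre4 have the highest mean levels over the 6 libraries, though Adgrg5 is above Adgre4 in Nfkb2-/- BMDCs alone. Adgre4 has the most negative fold change, the contrast on which it was chosen.

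The genes whose products bind CD97 were described beside Adgre5. Of 7, 6 were tested and 0 called in edgeR, with 3 at an unadjusted p-value under 0.05 and 3 called by DESeq2 (Cd55, Thy1 and Itgb3), beside 17.1% and 8.6% of all genes tested, and the median log2 fold change was 0.57. Itgb1, Itgav and Itga5, integrin subunits, were the most abundant, and Itgb1 was at 979, 888 and 1730 CPM in WT and at 1069, 1275 and 1151 CPM in Nfkb2-/- libraries. Cd55, an inhibitor of complement, was at 0.878, 0.461 and 0.688 CPM in WT and at 2.81, 1.52 and 1.57 CPM in Nfkb2-/- libraries (log2 fold change 1.53, SE 0.44, adjusted p = 0.143 from edgeR). Thy1, a surface protein of T cells and stroma, was at 0.142, 0.277 and 0.275 CPM in WT and at 3.01, 1.38 and 1.01 CPM in Nfkb2-/- libraries (log2 fold change 2.95, SE 0.60, adjusted p = 0.071 from edgeR). Neither overlapped between genotypes, and both were named after their values were seen.

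Of 16 genes through which adhesion receptors signal, such as G protein subunits, small GTPases and arrestins, 0 were called in edgeR, with 4 at an unadjusted p-value under 0.05 and 2 called by DESeq2 (Arrb2 and Arhgef12), beside the same 17.1% and 8.6%. Their median log2 fold change was -0.02. The most abundant were Gnai2, an inhibitory G protein subunit, Rhoa, a small GTPase, and Rock1, a kinase that it activates, which differed by 0.11, -0.03 and -0.02 on the log2 scale, none of them called. Arrb2, which ends receptor signalling, was at 319, 226 and 399 CPM in WT and at 149, 140 and 145 CPM in Nfkb2-/- libraries, lower without overlap but not called (log2 fold change -1.12, SE 0.22, adjusted p = 0.062 from edgeR). Arrb1, another arrestin, was higher without overlap and not called (log2 fold change 0.42, adjusted p = 0.256 from edgeR). Of the 16 genes, 4 were lower and 1 higher without overlap, beside 24.7% without overlap over all genes tested.

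The genes most like each member across the 6 libraries were sought among 10645 genes whose mean reached 5 CPM, by Pearson's r of log2 CPM, as a description. For Adgre1 these were Cd33, Plxna1, P2ry6, Tifab and Adam15, with r of at least 0.997. Cd33, a sialic acid-binding receptor of myeloid cells, was at 361, 424 and 52.5 CPM in WT and at 272, 314 and 372 CPM in Nfkb2-/- libraries, in the same order as Adgre1. P2ry6, a receptor for extracellular nucleotides, was at 78.8, 76.4 and 8.12 CPM in WT and at 55.7, 59.3 and 73.7 CPM in Nfkb2-/- libraries. All 5 had their lowest value in WT replicate 3, and without that library r was 0.922 to 0.990.

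For Adgre4 the most alike were Atp10d, Rbm33, Nfrkb, Tbc1d20 and Prdm1, with r between 0.988 and 0.994. Prdm1, the gene for the repressor Blimp-1, was at 51.9, 72.5 and 56.3 CPM in WT and at 22.6, 19.1 and 18.9 CPM in Nfkb2-/- libraries (log2 fold change -1.57, SE 0.18). Atp10d, a lipid flippase, was at 42.7, 48.4 and 38.1 CPM in WT and at 24.3, 22.2 and 24.1 CPM in Nfkb2-/- libraries. All 5 lay lower in each Nfkb2-/- library than in each WT library, though Rbm33 and Nfrkb by only -0.23 and -0.22 on the log2 scale. They were picked for likeness to Adgre4, which was chosen on this contrast, so nothing is read from their difference between genotypes. For Adgre5 the most alike were Gm21781, Efl1, Mob2, B930036N10Rik and Agbl5, with r between 0.941 and 0.980 and their highest value in WT replicate 2. With total counts in place of TMM, 3 of these 5 genes for Adgre1, 0 for Adgre4 and 1 for Adgre5 were again among the 5 most alike. By Spearman's correlation over the same libraries 1, 1 and 2 of the 5 were among the highest, and 32 genes had the same order of libraries as Adgre1 and 12 the same as Adgre4. Among the members, r was -0.23 for Adgre1 with Adgre4 (Spearman 0.31), -0.22 for Adgre1 with Adgre5 (Spearman -0.09) and 0.69 for Adgre4 with Adgre5 (Spearman 0.43).

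Genes near Adgre4 were examined next. Of 29 coding genes within 500 kb, 26 were tested and 2 were called, both lower in Nfkb2-/- BMDCs, and 11 had no overlap, 6 of them lower and 5 higher. Over all genes tested 1.14% were called and 24.7% had no overlap. The median log2 fold change of the 26 was -0.02. Pot1b, for a protein of telomere ends, lies 37.4 kb before Adgre4 and was at 126, 95.8 and 144 CPM in WT and at 34.7, 44.4 and 48.8 CPM in Nfkb2-/- libraries (log2 fold change -1.52, SE 0.21, adjusted p = 0.035 from edgeR). Ebi3, for a subunit of IL-27 and IL-35, lies 99.0 kb after it and was at 30.6, 34.0 and 46.0 CPM in WT and at 12.9, 14.2 and 14.1 CPM in Nfkb2-/- libraries (log2 fold change -1.42, SE 0.19, adjusted p = 0.033 from edgeR). Among the 5 higher, Uhrf1 and Tnfaip8l1 had the largest log2 fold changes, 1.48 and 1.09, and neither was called (adjusted p = 0.085 and 0.105 from edgeR). These were named after their values were seen. Zfp119a, a zinc finger gene and the nearest after Adgre4 at 11.2 kb, was at 21.5, 18.6 and 24.7 CPM in WT and at 6.23, 12.5 and 13.3 CPM in Nfkb2-/- libraries, lower without overlap but not called (log2 fold change -1.02, SE 0.30, adjusted p = 0.150 from edgeR).

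Around Adgre1, 20 of 25 coding genes were tested, and around Adgre5, 28 of 32. In each set 0 were called in edgeR and 5 had no overlap, beside the 24.7% over all genes tested, with medians of 0.14 and 0.12. Vav1, a guanine nucleotide exchange factor of blood cells 30.7 kb before Adgre1, differed by 0.26 (SE 0.25) and was not called. Vmn2r120, a pheromone receptor gene 22.9 kb after Adgre1, was at or below 1.80 CPM in each library. The latrophilin gene Adgrl1 lies 159 kb from Adgre5, upstream on its strand, was at or below 2.92 CPM in each library and was not called. C3, the complement component 131 kb before Adgre1, was at 116, 160 and 21.6 CPM in WT and at 108, 140 and 98.8 CPM in Nfkb2-/- libraries, low in WT replicate 3 as Adgre1 was, and was named after its values were seen.

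**Figure D4:**
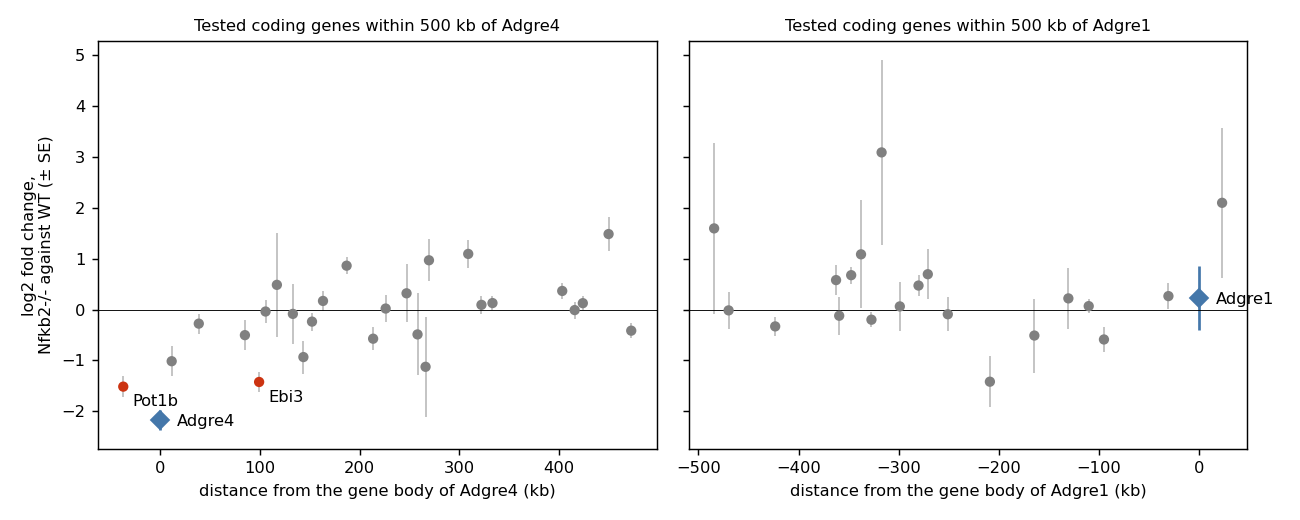
Log2 fold change in Nfkb2-/- against WT BMDCs with its standard error for the tested coding genes within 500 kb of Adgre4 (left) and Adgre1 (right), by distance from the gene body in kb, with the member as a blue diamond and called genes in red. Pot1b and Ebi3 are the called genes near Adgre4, and no gene near Adgre1 was called.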

How the data were processed

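The authors deposited whole-number read counts per Ensembl gene for each of the 6 libraries, without normalization. The submitters' processing notes name HISAT2, GRCm38 and mm10, and the counting tool, annotation and use of strand are not given in the sources used here. The joint table of all libraries repeats these counts and was set aside.

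Genotypes were taken from the labels. Genes with a GENCODE M21 name and at least 50 counts over the 6 libraries were kept. Counts on IDs without such a name, 1.01% to 1.75% of a library, stayed out of library sizes and tests. Counts were scaled with TMM and the genotypes compared by edgeR 4.0.16 (glmQLFit, glmQLFTest, no covariates) in R 4.3.3, with p-values adjusted by Benjamini-Hochberg over 21849 genes. A called gene had an adjusted p-value below 0.05 and differed by more than 1.2-fold. The standard error is the size of the log2 fold change over the square root of F. TPM used union exonic length. DESeq2 1.42.0, limma 3.58.1 (voom), RLE factors, total counts, 3 filters, a replicate block and each library left out were the alternatives. The fit was tested on simulated counts, in which edgeR found 50 of 100 genes given the smaller change and 98 of 100 given the larger. There edgeR called 155 genes, 7 of them unchanged, and DESeq2 called 203, 39 of them unchanged. Replicates differed by more than sampling noise, the smallest chi-square per degree of freedom being 7.67.

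The members and the 13 gene lists were chosen with earlier results of these data known. Genes named are the members, Nfkb2, Relb, the 5 most alike genes per member, called members and up to 3 of the most abundant of each list, and near each member the called genes and the nearest tested gene on each side. Any others were named after their values were seen. One neighbouring gene that this rule names is not reported here. Counting error weighs most on genes with few counts, Adgre4 in Nfkb2-/- libraries among them. Single-cell and other measurements of the study were not analysed here.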

Additional observations from a re-analysis of the deposited data

How the results depend on the processing

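The direction of the Adgre4 and Adgre5 log2 fold changes held in the 14 alternative fits, and that of Adgre1 turned in 1, without WT replicate 3. The number of genes called was less stable. It was 1878 with DESeq2, 488 with limma voom, 397 with filterByExpr, 1625 when any gene with a count was kept and 459 with at least 10 counts in every library, against 248. Leaving out each library in turn gave 0 to 1248 genes, with 1248 without WT replicate 2 and 0 without WT replicate 1 or any 1 of the Nfkb2-/- libraries. Those 4 edgeR fits gave 2325 to 4088 genes at an unadjusted p-value under 0.05. Adgre4 was not called in them or under the block. In the lists the count of 5 became 38 with DESeq2, 10 with limma voom, 42 with any gene kept, 8 with at least 10 counts in every library and 0 to 27 without each library in turn. Near the members the count of 2 became 9, 4 and 7 with DESeq2, limma voom and any gene kept, and 0 to 8 without each library. The causes of these shifts were not tested beyond the fewer libraries or the other genes tested.

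With the replicate number as a block, 0 genes were called in edgeR among all genes, 0 in the lists and 0 near the members, with 3331 genes at an unadjusted p-value under 0.05. The deviations of same-numbered libraries correlated at 0.262, 0.148 and 0.0224. Nfkb2-/- replicates 1 and 2 correlated best with the WT library of the same number, and Nfkb2-/- replicate 3 with WT replicate 2, at 0.164. With 3 libraries per genotype these values cannot decide whether same-numbered libraries were paired. Depth limits the statements on adhesion receptors near 0 CPM.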
